A study of Mus musculus with 6 samples.

Results

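The Schlafen family was followed in mouse eosinophils cultured for 24 h with or without extracellular vesicles (EVs) from activated TH2 cells. The members were taken by symbol from the gene table as Slfn1, Slfn2, Slfn3, Slfn4, Slfn5, Slfn8 and Slfn9, which gave 7 of 16254 genes, 6 of them with enough counts to test among 13498 genes. Eosinophils were grown from the bone marrow of C57BL/6 mice, and 3 cultures received 5e9 EVs per ml purified from activated TH2 cell medium, whereas 3 sham-treated cultures received medium that had met no cells and went through the same purification. RNA with poly(A) tails was sequenced from these 6 cultures, which the labels call biological replicates without naming the animals, so that p-values measure the spread between these cultures. The counts per culture summed to between 23697620 and 37874426.

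Schlafen proteins share an amino-terminal core that can bind and, in some members, cut tRNA, and the long members carry a helicase-like region behind it. Many of the genes are induced by type I interferon through STAT and IRF transcription factors. Slfn2 is known for keeping T cells and monocytes quiescent and for shielding tRNA from stress-induced cleavage, and Slfn5 is known in the nucleus as a restraint on interferon-driven transcription.

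In eosinophils treated with EVs, Slfn2 rose by 20.1% and Slfn5 fell to 0.516 of its sham level, while no change in Slfn1, Slfn3, Slfn8 or Slfn9 passed the test. Slfn4 was close to absent, with 3 counts in 1 culture and 0 in the other 5. With a threshold of 0.01 on the adjusted p (edgeR's quasi-likelihood test, Benjamini-Hochberg over all genes), 1 of the 6 members tested counted as higher and 1 as lower. In the same comparison 12.1% of all genes tested were higher and 11.6% were lower, so that 1 of 6 in each direction is near the background. The median log2 fold change was -0.22 over the 6 members and -0.01 over all genes tested.

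The family lies in 1 cluster on chromosome 11. In GENCODE vM21 on GRCm38, which is the mm10 build named in the submitters' processing notes, 8 Schlafen rows of the table (the 7 members and the pseudogene Slfn10-ps) span 263.8 kb at chr11:82951349-83215154. Slfn5, Slfn2, Slfn1, Slfn4 and Slfn3 are on the plus strand in this order, and Slfn9, Slfn8 and Slfn10-ps are on the minus strand between Slfn5 and Slfn2. Slfn5, with the largest decrease in the family, and Slfn2, with the increase that passed the test, are therefore separated by 3 genes whose changes did not pass it. The short members Slfn1 and Slfn2 encode 336 and 377 residues, the intermediate members Slfn3 and Slfn4 encode 639 and 601, and the long members Slfn5, Slfn8 and Slfn9 encode 883, 909 and 909, as counted from the coding length. Another Schlafen gene of this locus, Slfn14, has no row in the table, so no level or change is given for it.

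**Figure D1:**
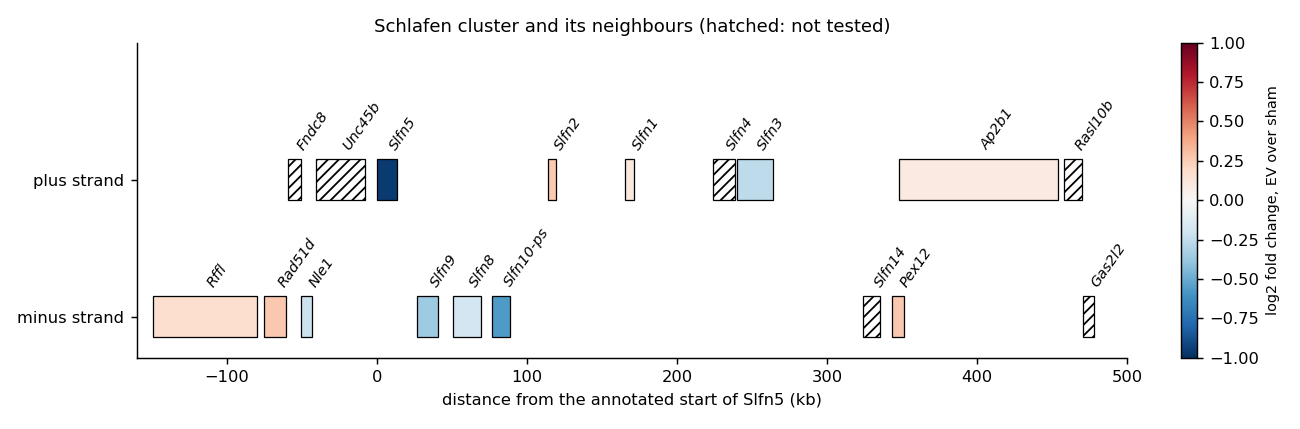
The annotated extent of the Schlafen genes and their neighbours by strand, drawn as boxes along the distance in kb from the annotated start of Slfn5 and coloured by the log2 fold change of EV over sham, with hatched boxes for genes that were not tested. Slfn5 at the left end is the darkest blue at -0.95, Slfn2 is pale red at 0.26, and the 5 tested neighbours lie between -0.21 and 0.27.

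Slfn2 was by far the most abundant member. Its normalized count, which is the count scaled to the effective library size, was 8804, 8359 and 8812 in sham cultures 1 to 3 and 10137, 10012 and 11036 in EV cultures 1 to 3. Every EV culture was above every sham culture, as it was in one direction or the other for 49.6% of all genes tested. The mean went from 8658 ± 259 (SD, n = 3) to 10395 ± 559 (SD, n = 3). This was a log2 fold change of 0.26 ± 0.0591 (SE), with a 95% confidence interval of 0.13 to 0.40 and an adjusted p of 0.00606 in edgeR's quasi-likelihood test. The coefficient of variation between cultures was 2.99% in sham and 5.38% with EVs, the lowest in the family in both groups. Its call did not survive the loss of most single cultures. It passed the threshold without sham culture 1 (adjusted p = 0.00551), whereas without any one of the other 5 cultures the adjusted p was 0.0148 to 0.0336 and the log2 fold change 0.23 to 0.30. With scaling by library totals alone, where the median of all genes shifted to -0.16, Slfn2 was at 0.11 (adjusted p = 0.118), and with limma on the deposited normalized counts it was at 0.26 (adjusted p = 0.0472).

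Slfn5 moved the other way. Its normalized count was 763, 1341 and 1142 in sham cultures 1 to 3 and 532, 639 and 500 in EV cultures 1 to 3. The groups did not overlap, but sham culture 1 was nearer to the EV cultures than to the other sham cultures. The mean went from 1082 ± 293 (SD, n = 3) to 557 ± 72.3 (SD, n = 3). The log2 fold change was -0.95 ± 0.188 (SE), with a 95% confidence interval of -1.37 to -0.53 and an adjusted p of 0.0029. Leaving out sham culture 1 gave -1.15 (adjusted p = 0.00012) and leaving out EV culture 2 gave -1.06 (adjusted p = 0.00691). Without any one of the other 4 cultures the adjusted p was 0.011 to 0.0203, at log2 fold changes of -0.92 to -0.77, and the call was lost, as it was with limma on the deposited normalized counts (-0.93, adjusted p = 0.0359). Set against Slfn2 within each culture, there were 8.67, 16.0 and 13.0 Slfn5 counts per 100 Slfn2 counts in sham cultures and 5.25, 6.38 and 4.53 in EV cultures.

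**Figure D2:**
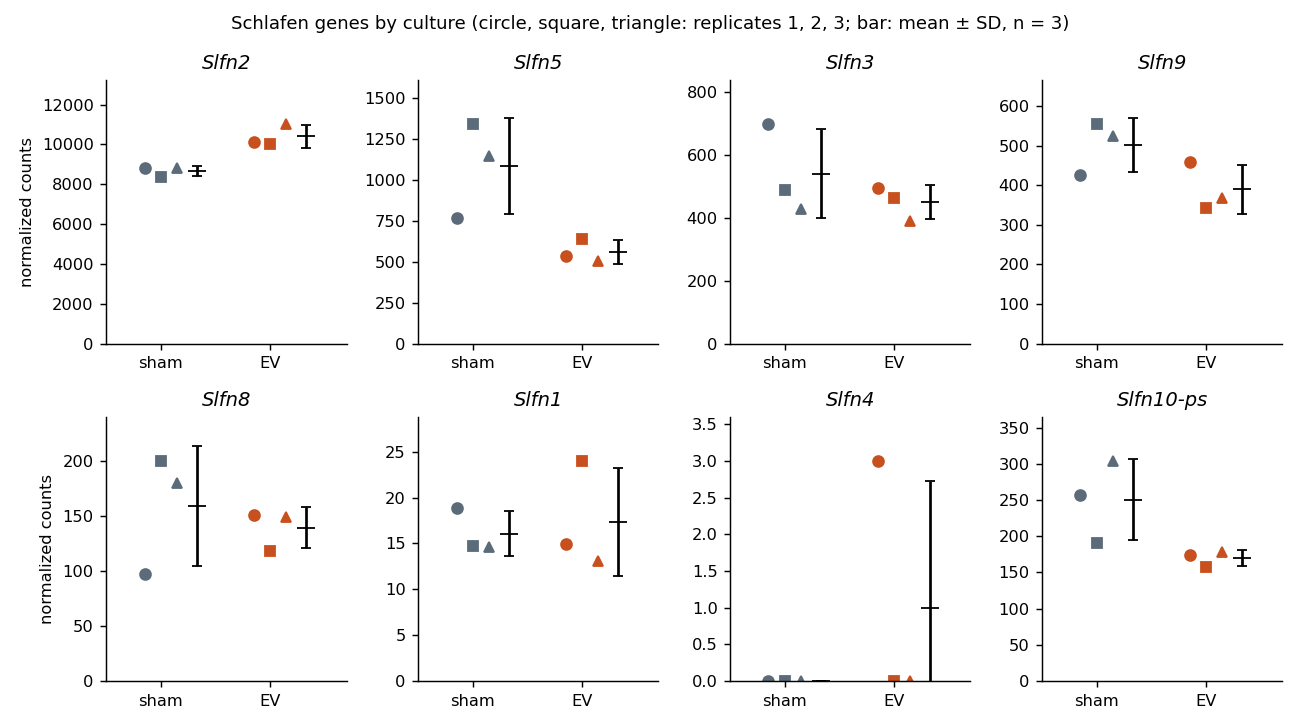
Normalized counts of 7 Schlafen members and the pseudogene Slfn10-ps in each culture, one panel a gene with its own axis from 0, with replicates 1 to 3 as circle, square and triangle and the mean ± SD (n = 3) as a bar beside them. The groups are apart for Slfn2, Slfn5 and Slfn10-ps and overlap for the other members.

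The other long members, Slfn8 and Slfn9, are near-copies of each other, with 92.7% identical bases over their coding sequences, against 61.0% between Slfn5 and Slfn8. Slfn9 was at 425, 555 and 525 normalized counts in sham cultures and at 460, 341 and 366 with EVs. EV culture 1 lay above sham culture 1, so the groups overlapped, and the log2 fold change of -0.37 ± 0.159 (SE, interval -0.72 to -0.01) had an adjusted p of 0.103. Slfn8, a gene also found in T cells, was at 97.3, 199.8 and 179.8 in sham cultures and at 150.9, 118 and 149 with EVs. Here sham culture 1 was the lowest of all 6, as it was within the sham group for Slfn5 and Slfn9. The log2 fold change of Slfn8 was -0.19 (interval -0.82 to 0.45, adjusted p = 0.657), and it was 0.015 without sham culture 2. The pseudogene Slfn10-ps, which shares sequence with both, had 257, 191 and 304 normalized counts in sham cultures and 174, 157 and 178 with EVs. Its groups did not overlap, but at a log2 fold change of -0.57 its adjusted p was 0.0556.

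Reads of these genes may have been divided by estimation rather than by position. Of the 31-base words in the annotated transcripts of Slfn8, 19.1% also occur in Slfn9 and 18.7% in Slfn10-ps, and 27.3% occur in some other gene. For Slfn9 that total is 24.6%. The counts of Slfn8 and Slfn9 together had a log2 ratio of -0.31, and with Slfn10-ps added the log2 ratio was -0.38, for sums of 911 ± 118 in sham and 698 ± 84.1 in EV cultures (SD, n = 3). These sums were given no test. Slfn5 shares 0% of its words with the other Schlafen rows but 8% with Slfn5os, an antisense gene that overlaps 9333 bases of it. Slfn2 shares 7% with Slfn4 and is overlapped over 4927 bases by the antisense gene Gm20234. Neither antisense gene has a row in the table, and whether reads were counted by strand is not given in the sources used here, so that reads from either strand cannot be told apart at Slfn5 or at Slfn2.

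Among the intermediate members, Slfn3, which is known from T cells and from the differentiation of intestinal epithelium, was measured well enough to compare and Slfn4, known from activated macrophages, was not. Slfn3 was at 698, 489 and 429 normalized counts in sham cultures and at 496, 464 and 390 in EV cultures. Sham culture 1 was the highest of all 6, whereas it was the lowest of the sham cultures for Slfn5, Slfn8 and Slfn9. The log2 fold change was -0.26 ± 0.186 (SE), with an interval of -0.68 to 0.15 and an adjusted p of 0.308. Slfn4 had 0 counts in the 3 sham cultures and in EV cultures 2 and 3 and 3 counts in EV culture 1, where 3 counts are also the upper limit that a count of 0 allows, or 0.0792 to 0.127 CPM (counts relative to the library total) depending on the culture (counting error only). No fold is given for it. The coding sequences of Slfn3 and Slfn4 are 91.6% identical and 15.1% of the words of Slfn3 occur in Slfn4, and their summed counts had a log2 ratio of -0.23.

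Slfn1, the short member first described as a brake on thymocyte growth, was near the limit of the test. Its normalized counts were 18.9, 14.7 and 14.6 in sham cultures and 15, 24.0 and 13.1 in EV cultures. The groups overlapped at both ends, and the log2 fold change of 0.11 ± 0.614 (SE) had an interval of -1.27 to 1.48 (adjusted p = 0.914). At this depth a change of the size seen for Slfn5 was not detectable in Slfn1, and its sign turned to -0.04 with scaling by library totals. Slfnl1, a Schlafen-like gene outside the cluster on chromosome 4, was at 9.01, 11.0 and 4.86 normalized counts in sham cultures and at 25, 24.0 and 32.2 with EVs. All 3 EV cultures were higher, but at a log2 fold change of 1.69 ± 0.634 (SE) the adjusted p was 0.0635.

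**Figure D3:**
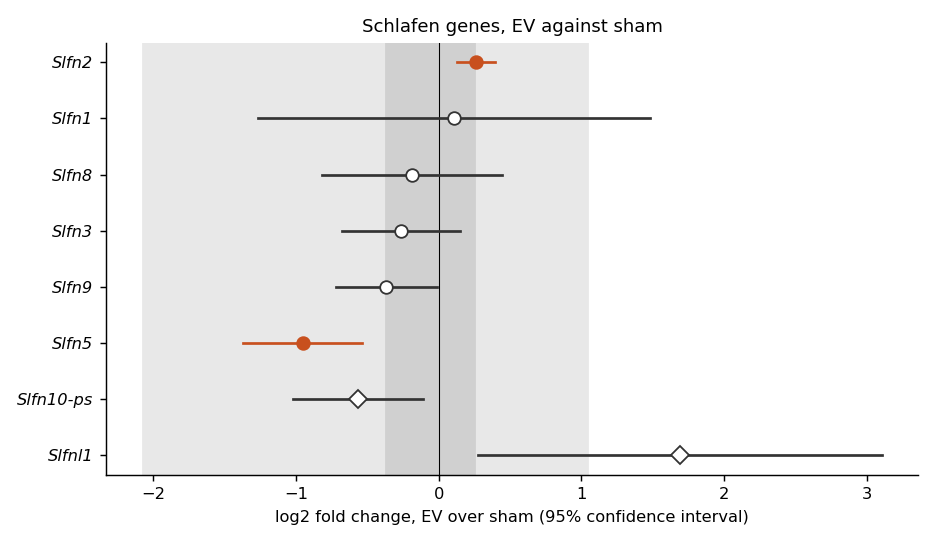
Log2 fold change of EV over sham with its 95% confidence interval for the 6 members tested (circles) and for Slfn10-ps and Slfnl1 (diamonds), filled where the adjusted p was under 0.01. Dark and light grey bands hold the middle 50% and 90% of all genes tested; Slfn5 at -0.95 and Slfn2 at 0.26 are filled, and the intervals of Slfn1, Slfn3 and Slfn8 cross 0.

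Levels of different genes were compared as CPM per kilobase of the longest annotated transcript. On this scale Slfn2 was at 169 ± 5.04 (SD, n = 3) in sham and 202 ± 10.9 in EV cultures. The next members were Slfn3 at 8.88 ± 2.33 in sham and 7.41 ± 0.893 with EVs, and Slfn5 at 5.86 ± 1.59 and 3.02 ± 0.392. Slfn9 followed at 2.82 ± 0.382 and 2.18 ± 0.35, then Slfn8 at 1.28 ± 0.439 and 1.13 ± 0.147, and Slfn1 at 0.279 ± 0.0429 and 0.302 ± 0.102. In sham cultures the ranges of neighbours in this order did not overlap except for Slfn3 with Slfn5, and in EV cultures none overlapped. The place of Slfn5 in sham cultures depended on the length used, since per kilobase of coding sequence it was at 13.2 ± 3.59, above Slfn3 at 9.09 ± 2.39. In EV cultures it was at 6.81 ± 0.883 on that scale, under Slfn3 at 7.59 ± 0.914, and the ranges of these genes overlapped in both groups. Slfn2 made up 88.9% to 90.5% of the summed level of the 7 members per kilobase of transcript in sham cultures and 92.9% to 94.5% in EV cultures. The share of Slfn5 was 2.17% to 3.97% and 1.19% to 1.65%.

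The sequence upstream of the start sites was set beside these values because the members carry a known interferon response. Windows of 250 bases before each RefSeq start (GRCm38.p6) were searched on both strands for TTTCNNTTT, the core of the interferon-stimulated response element (ISRE), and for the STAT motif TTCNNNGAA and its STAT6 variant with 1 base more between the arms. Of 32851 windows of the same length, 9.37% held the ISRE core, 7.02% the STAT motif and 5.85% the STAT6 variant. The ISRE core occurred in the windows of 5 of the 7 members (Slfn1, Slfn4, Slfn5, Slfn8 and Slfn9) and these letters were in neither the Slfn2 nor the Slfn3 window. The STAT motif and the STAT6 variant were in the window of none of the 7. Of the members with a changed level, Slfn5, which fell, has the ISRE letters and Slfn2, which rose, does not. Slfn1, Slfn8 and Slfn9 have the letters and Slfn3 lacks them, each without a change that passed the test. Both windows are shown from 5′ to 3′ on the plus strand with the ISRE core in capitals, Slfn5 from chr11:82951852-82952101 and Slfn2 from chr11:83064862-83065111. In Slfn5 a pair of overlapping matches begins 160 and 154 bases before the RefSeq start. GENCODE places the first base of the gene further upstream, at chr11:82951349, so the matches lie inside its annotated extent.
Slfn5: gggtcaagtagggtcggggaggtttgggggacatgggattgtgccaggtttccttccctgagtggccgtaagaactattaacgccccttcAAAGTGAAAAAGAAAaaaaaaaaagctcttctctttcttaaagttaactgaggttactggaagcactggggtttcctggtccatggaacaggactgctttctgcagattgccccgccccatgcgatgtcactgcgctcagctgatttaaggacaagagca
Slfn2: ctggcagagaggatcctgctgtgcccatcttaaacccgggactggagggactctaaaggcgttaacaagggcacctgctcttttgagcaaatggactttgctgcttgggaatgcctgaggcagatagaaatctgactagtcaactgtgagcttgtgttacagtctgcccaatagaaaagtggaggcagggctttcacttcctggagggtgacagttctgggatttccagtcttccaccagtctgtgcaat

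The other tested members with a match had it closer to the start, beginning 32 bases before it in Slfn1, 48 in Slfn8 and 45 in Slfn9, where Slfn8 has a further RefSeq start from which the distance is 136. The stretches around the match show that Slfn8 and Slfn9 hold the same 9 letters in near-identical surroundings. They are at chr11:83116766-83116817 on the plus strand for Slfn1, at chr11:83020829-83020880 on the minus strand for Slfn8 and at chr11:82991846-82991897 on the minus strand for Slfn9. A match describes letters only.
Slfn1: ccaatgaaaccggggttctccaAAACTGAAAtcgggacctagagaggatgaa
Slfn8: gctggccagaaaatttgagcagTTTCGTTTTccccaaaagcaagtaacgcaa
Slfn9: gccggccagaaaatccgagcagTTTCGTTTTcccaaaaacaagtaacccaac

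Interferon-stimulated genes were read from the same fit, as most Schlafen genes are counted among them. Of 35 tested from a list of 40, 15 rose and 0 fell in edgeR's quasi-likelihood test (3 were lower at an unadjusted p under 0.05 and 0 by DESeq2), with a median log2 fold change of 0.62. Thus 42.9% of the list was higher, against 12.1% of all genes and 1 of 6 Schlafen members. Zbp1, a sensor of Z-form nucleic acid, went up by 4.49 on the log2 scale, from 44.8 ± 31.2 to 1049 ± 39.8 normalized counts (SD, n = 3). Usp18, which limits signalling from the type I interferon receptor, rose by 2.65 on the log2 scale, the antiviral gene Oasl2 by 1.96, the mitochondrial kinase Cmpk2 by 1.76 and its neighbour Rsad2 (viperin) by 1.69. Pml, the organizer of nuclear bodies, rose by 1.26, the exonuclease gene Isg20 by 1.13 and Parp14 by 1.05. The most abundant genes of the list that did not pass were Trim25 at -0.18, Lgals3bp at 0.14 and Trim30a at -0.07. Slfn2 at 0.26 therefore lay under the median of this list and Slfn5 at -0.95 below all but 1 of its tested genes, the exception being Oas1g at -1.69 (adjusted p = 0.226), which was named after its value was seen.

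Of 17 interferon receptors, kinases and transcription factors, 8 rose and 2 fell, with a median of 0.17. Irf9, a DNA-binding subunit of the complex that binds the ISRE, rose by 1.31 on the log2 scale, Irf7 by 2.07, Irf1 by 1.08 and the kinase gene Jak2 by 1.41. Irf8, a factor of monocyte and macrophage development, fell by 3.15 on the log2 scale, from 949.8 ± 299 to 106 ± 45.8 normalized counts (SD, n = 3). Jak1 at 0.03, Stat6 at -0.08 and Tyk2 at 0.14 did not pass.

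**Figure D4:**
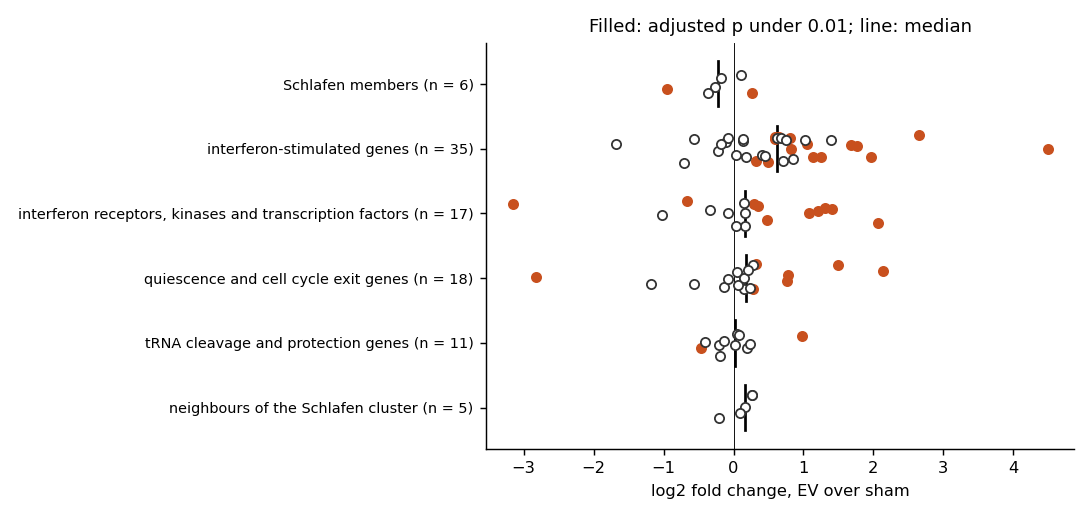
Log2 fold change of EV over sham for each tested gene of the Schlafen family and of 5 lists of related genes, filled where the adjusted p was under 0.01, with a vertical line at each median. Medians run from -0.22 for the Schlafen members to 0.62 for the interferon-stimulated genes, and Slfn5 is the leftmost point of its row.

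Slfn2 is known as a quiescence gene, and 18 genes of quiescence and cell cycle exit were read beside it. Of these 6 rose and 1 fell, with a median log2 fold change of 0.18. Cdkn1a, an inhibitor of cyclin-dependent kinases, rose by 1.5 on the log2 scale and Klf2, a factor of T cell quiescence, by 2.14. Cdkn1c, another inhibitor of these kinases, fell by 2.82. Btg1 at 0.15, Cdkn1b at 0.05 and Tob1 at -0.14 did not pass. Slfn2 at 0.26 lay between the median and the highest of these genes.

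Of 11 tested genes of tRNA cleavage and protection, 1 rose and 1 fell, with a median of 0.03. The gene that fell was Tsen34, a subunit of the tRNA splicing endonuclease, at -0.47, named after its value was seen. Rnh1, the inhibitor of angiogenin and related RNases, at -0.20, Rtcb at 0.19 and Nsun2 at 0.03 did not pass.

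Of 9 genes that flank the cluster, 5 were tested and 0 were called by edgeR's quasi-likelihood test or by DESeq2 (1 was higher at an unadjusted p under 0.05), with a median of 0.17. Among them were Ap2b1 at 0.09, Rffl at 0.17 and Rad51d at 0.27. The differences within the Schlafen cluster thus lay beside flanking genes between -0.21 and 0.27, a range that holds Slfn1, Slfn2 and Slfn8 and leaves out Slfn3, Slfn5 and Slfn9.

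Markers of eosinophils and of other cells moved with the treatment. Of 12 eosinophil markers, all detected, 8 were higher with EVs (median log2 fold change 0.67), and their summed normalized counts were 942208 to 1186850 in sham and 1344100 to 1501580 in EV cultures. Of 12 macrophage markers, 1 (Adgre1, also an eosinophil gene and named after its value was seen) was higher and 9 were lower, with a median of -2.52 and sums of 81492, 128781 and 126672 in sham cultures against 44645, 51432 and 51046 in EV cultures, none of them at 0. Of 16 T cell markers, 5 were tested and 2 (Cd28 and Il7r) were lower. This list summed to 1435, 2906 and 2789 in sham cultures 1 to 3 and to 441 to 645 in EV cultures. Among those with too few counts to test, Cd2, Cd5 and Thy1 were at 0 in all sham cultures and at means of 0.286 to 1.81 with EVs. Others had counts in some sham cultures. From sham to EV, mean normalized counts went from 16.3 to 0.576 for Cd4, 8.12 to 2.53 for Trac and 11.1 to 1.49 for Lck. They went from 17.5 to 2.90 for Bcl11b and, in the other direction, from 1.23 to 3.91 for Cd3g. Of 10 tested neutrophil markers 2 were higher and 5 lower, and of 7 basophil or mast cell markers 5 were higher and 0 lower (0 also by DESeq2 and at an unadjusted p under 0.05). In bulk RNA, fewer cells of a type and less RNA per cell cannot be told apart. The authors report that at this dose and time these EVs raised eosinophil survival over untreated cells. The part of survival in the levels given here was not tested.

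Most of the macrophage list moved with Slfn5, within the sham cultures and between the groups. Sham culture 1 was the lowest of the sham cultures for Slfn5 and for 11 of the 12 macrophage markers. It was also the lowest for the T cell markers Cd28, Il7r, Cd8a and Tcf7, though not for Cd3d. This place of sham culture 1 was thus not particular to macrophage genes, and its share over all genes was not computed. The highest sham culture was 1.76 times the lowest for Slfn5, and a median of 2.02 times over the markers, with a range of 1.03 to 2.85. C1qa, C1qc, Mertk, Ms4a7, Cd14 and Lyz2 had log2 fold changes between -3.38 and -2.47 and Csf1r was at -1.31, each further below 0 than Slfn5 at -0.95. Fcgr1 at -0.63 and Mrc1 at 0.34 did not pass the test, and Adgre1 was higher at 0.62. Slfn2 did not share this order, as its 3 sham cultures lay within 8359 to 8812. The part of these cells in the level of Slfn5 was not tested.

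**Figure D5:**
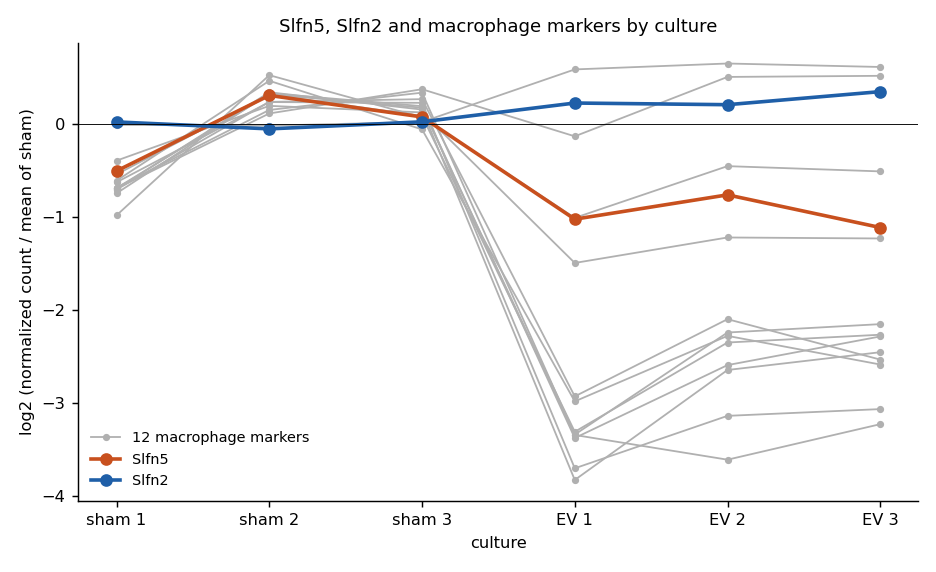
Normalized counts of Slfn5 (orange), Slfn2 (blue) and 12 macrophage markers (grey) in each culture, as log2 of the ratio to the mean of the 3 sham cultures, where lines join the values of 1 gene and imply no order of cultures. Slfn5 is low in sham culture 1 and in all EV cultures as most markers are, whereas Slfn2 is flat over the sham cultures.

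The genes most like each member over the 6 cultures were found among all genes tested. The measure was the root mean square difference of log2 normalized counts, centred on each gene's mean of the sham cultures. For Slfn2 they were Ubb (polyubiquitin), at a difference of 0.0132, Alox5ap (which presents arachidonic acid to the leukotriene pathway), at 0.0206, and Ric8a, at 0.0214. Alox5ap was at 24104 to 25509 normalized counts in sham and 29220 to 32179 in EV cultures, a log2 fold change of 0.29 (adjusted p = 0.00288). For Slfn5 they were Rap2a (a small GTPase), at 0.056, Gss (glutathione synthetase), at 0.0781, and Ccdc50, at 0.0856. Rap2a was at 1645, 2684 and 2339 normalized counts in sham cultures and at 1152, 1370 and 1091 in EV cultures, with sham culture 1 again the lowest of its group. For Slfn9 they were Dcps, Zfand1 and Eri3, for Slfn3 Dgcr6, Fam227a and Zfp580, and for Slfn8 Ccdc17, Slc26a6 and Ifrd1, at differences of 0.0504 to 0.102. For Slfn1, where counting error is largest, Ndufaf1, Taco1 and Dusp19 were the nearest, at 0.146 to 0.161. No Schlafen gene was among the 3 nearest of another, which says little about the family with 13498 genes to choose from.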

How the data were processed

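Treatment and replicate number were taken from the sample labels. The authors' notes name FastQC, Cutadapt for trimming, Salmon for quantification and DESeq2 for the comparison; versions are not given in the sources used here. The authors deposited estimated counts per gene, not all whole (within 0.01), which were rounded. Normalized counts that the authors deposited as well are a signal equal to the rounded count plus 1 over a size factor, and served in 1 alternative. Their deposited comparison, with log2 fold changes, p-values, a test score and means, was not used.

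Counts were fitted with edgeR 4.0.16 in R 4.3.3 (TMM, filterByExpr, quasi-likelihood test, Benjamini-Hochberg adjustment over 13498 genes, calls at an adjusted p under 0.01). The standard error is the log2 fold change over the square root of F. DESeq2 1.42.0 and limma 3.58.1 gave alternatives, as did other scalings, no filter, the replicate block, other thresholds, leaving out each culture, and coding length for levels, the last added after the data were seen. The main edgeR fit was tested on simulated counts, and the alternatives were not. Shared words and alignments came from GENCODE vM21 transcripts. The named genes were every Schlafen row, up to 8 called genes per list with the smallest p (and a log2 fold change of 1 or more either way), up to 3 not called with the highest counts, and the 3 genes most like each member, with a pseudocount of 0.5. Some genes that this rule would name are not reported here. For marker lists, counts and sums stand in for most names. The members and lists were chosen with earlier results of these data known. With 3 cultures a group, an exact two-sided permutation test cannot go below p = 0.1, so none was used.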

Additional observations from a re-analysis of the deposited data

How the results depend on the processing

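Depth limited what could be seen of Slfn1 and Slfn4, the members with the lowest counts. In each alternative that follows, the cause of a change was not tested beyond what its construction shows (fewer cultures, a stricter threshold). The number of members higher was 0 with library totals only, 0 with limma on the deposited normalized counts and 0 with a log2 fold change of 1 or more either way required, and the number lower was 0 under the last 2 of these; leaving out 1 culture each gave 0 to 1 in each direction. For Slfn2 the log2 fold change was 0.11 with library totals (adjusted p = 0.118), 0.26 with limma (adjusted p = 0.0472), and 0.23 to 0.30 without 1 culture each. For Slfn5 it was -0.93 with limma (adjusted p = 0.0359) and -1.15 to -0.77 without 1 culture each. Slfn1 was at -0.038 with library totals, and without 1 culture each Slfn1 ranged from -0.19 to 0.28 and Slfn8 from -0.44 to 0.015. DESeq2, other size factors and no filter changed the call of none of the 6 members.

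Over all genes, 1036 were higher with library totals, 897 with limma and 419 with the fold threshold, and 1071 to 1833 without 1 culture each. Lower were 989 with limma, 2478 at an adjusted p under 0.05, 857 with the fold threshold, and 1018 to 1698 without 1 culture each. With library totals 30.7% of calls were higher, against 50.9% with TMM. Of the interferon-stimulated genes, 8 were higher with the fold threshold, and 1 was lower with library totals and 1 at an adjusted p under 0.05, and 0 to 1 without 1 culture each. With the replicate block, 1794 genes were higher and 1781 lower, and Slfn2 (0.26, adjusted p = 0.00436) and Slfn5 (-0.93, adjusted p = 2.1e-05) stayed called with no other member. Deviations of same-numbered cultures correlated at 0.117, 0.0846 and 0.0371, and those of differently numbered cultures at -0.116 to 0.0487. EV cultures 1 and 2 correlated best with the sham culture of their number, and EV culture 3 with sham culture 2 (0.0487). Whether same-numbered cultures share an animal is not given and these values do not settle it, so the block was kept as an alternative only.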
